A study of Mus musculus with 36 samples.

Results

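Replication-dependent histone genes encode the linker histone H1 and the core histones H2A, H2B, H3 and H4, the proteins on which newly replicated DNA is packed. They were taken as every entry of the counts table whose GENCODE M21 symbol begins with Hist1h, Hist2h, Hist3h or Hist4h, which gave 70 of the 55492 entries. Of these, 67 were annotated as protein-coding and 3 as pseudogenes (Hist3h2bb-ps, Hist1h2al and Hist1h2aj). The 70 entries comprised 6 H1, 20 H2A, 19 H2B, 12 H3 and 13 H4 genes. On GRCm38, 56 of them have Hist1 symbols and lie on chromosome 13. Of these, the pseudogene Hist1h2al, at chr13:51202727-51203065, lies far outside the Hist1 cluster that holds the others. Another 10 lie in the Hist2 cluster on chromosome 3, 3 in the Hist3 cluster on chromosome 11, and 1, Hist4h4, on chromosome 6. A mean count above 5 across libraries, the requirement for a test, was met by 66 of the 70.

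The libraries came from dissociated cortical cells of embryonic day 18 mice (C57EDCX) that were kept in culture for 10 days. The 3 groups compared had 12 libraries each, and were a control group in fresh medium, a group with 1 µM DEX (dexamethasone, an agonist of the glucocorticoid receptor), and a group with 1 µM DEX + 1 µM RU-486 (mifepristone, an antagonist of that receptor). Treatment lasted 72 h and was replenished at 48 h. Each group had 6 libraries in the labelled batch 1 and 6 in batch 2. The libraries are bulk RNA from a mixed culture, in which a larger number of dividing cells and more RNA per cell cannot be told apart. The labels do not say that the libraries came from separate cultures, so p-values measure the spread between these libraries.

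Replication-dependent histone genes are transcribed in S phase, when DNA is replicated, from clusters of short genes that mostly lack introns. Their mRNAs are the known exception among messengers, as they end in a conserved stem-loop in place of a poly(A) tail. The stem-loop is bound by Slbp, and the pre-mRNA is cut just after it with the help of the U7 small nuclear ribonucleoprotein. Some of these genes also give longer, polyadenylated transcripts in cells that have stopped dividing, such as neurons. The sample labels describe a selection of poly(A) RNA before library preparation, while the methods of the study describe a total RNA library, and how much each form of histone mRNA was retained was not measured. The other RNAs without poly(A) tails that are set beside the histone genes below took 1.04% to 9.27% of all counts over the 36 libraries. Rn7s1 and Rn7s2 among them took 0.449% to 7.48%.

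The stem-loop was searched for in the GENCODE M21 transcripts of each gene, as the 16-base histone 3′ stem-loop motif, and 46 of the 70 genes held it. The following sequences are those of the genes on which the comparisons turn, with 1 example for each of the more frequent forms. Each is read 5′ to 3′ on the strand of the gene, with the stem-loop in capitals and 5 bases on either side in lower case.
Hist1h1c: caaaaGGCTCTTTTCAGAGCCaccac
Hist1h2ao: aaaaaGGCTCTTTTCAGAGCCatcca
Hist2h3c2: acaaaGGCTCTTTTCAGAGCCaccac
Hist1h1t: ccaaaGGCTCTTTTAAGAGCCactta
Hist1h4n: ctaaaGGCCCTTTTCAGGGCCatcca
Hist1h4j: ctaaaGGTCCTTTTCAGGACCaccac
Hist2h4: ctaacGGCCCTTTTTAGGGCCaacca

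These stretches lie in the 3′ UTR on GRCm38 at chr13:23739507-23739532 (plus strand) for Hist1h1c, chr13:21810893-21810918 (plus) for Hist1h2ao, chr3:96238480-96238505 (minus) for Hist2h3c2, chr13:23696520-23696545 (plus) for Hist1h1t, chr13:21831793-21831818 (minus) for Hist1h4n, chr13:21735432-21735457 (plus) for Hist1h4j and chr3:96262934-96262959 (minus) for Hist2h4. The form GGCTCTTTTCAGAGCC was the most frequent and was shared by 26 genes, of which 3 encode H1, 10 H2A, 8 H2B and 5 H3. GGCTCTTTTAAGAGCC was found in 6 genes of H1, H2B and H3. The H4 genes used other stems, as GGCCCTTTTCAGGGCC was found in 7 genes, all of H4, and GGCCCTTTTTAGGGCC and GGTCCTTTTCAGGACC in 2 H4 genes each. The stem-loop lay in the last 150 bases of an annotated transcript in 24 of 67 protein-coding histone genes (35.8%) and in 4 of the 21830 other protein-coding genes of the table (0.0183%), which are Clec2d, Tcl1b1, Tcl1b2 and Wdr4. A match to these letters is a description and does not show that the site is used.

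The annotated 3′ end differed among the histone genes. In 23 genes every annotated transcript with the stem-loop ended within 100 bases of it, in 23 genes at least 1 transcript ran over 100 bases past it, and in 24 genes the annotated model held no stem-loop. Hist1h1d ran furthest, with 4884 bases of transcript after the stem-loop, followed by Hist4h4 with 2445 and Hist1h2ac with 2010. Hist3h2a had 1643 such bases, Hist2h4 1257, Hist1h1e 1153, Hist1h1c 840 and Hist1h4d 770. A poly(A) signal, AATAAA or ATTAAA on the transcribed strand within 40 bases of an annotated end, was present in 12 of the 23 genes that ran past the stem-loop, in 2 of the 23 that ended at it, and in 3 of the 24 without one.

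The promoters of the histone genes also differed by histone class. RefSeq promoters of 300 bases on GRCm38.p6, which reach 50 bases past the start of the gene, were matched for 62 of the 70 genes, and letters were searched on both strands. CCAAT was present in 53 of the 62 (85.5%), against 37.4% of the 32851 promoters in the table. All matched H1, H2A, H2B and H3 promoters held it, whereas 3 of 12 H4 promoters did. TATAAA was present in 35 (56.5%), against 13.6% of all promoters. ATTTGCAT, the octamer known from H2B promoters, was present in 7 of 18 H2A and 6 of 16 H2B promoters, with 1 promoter taken per gene, and in none of the H1, H3 and H4 promoters, and in 1.74% of all promoters. Another annotated promoter of Hist1h2be, not counted here, also held it. The adjacent H2A and H2B genes of a cluster are often transcribed from a shared stretch in opposite directions, so these matches are not independent of each other.

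The depth of the libraries and the integrity of their RNA, given as the RIN (RNA integrity number), differed in ways that touch every comparison of the histone genes. Total counts ranged from 12.1 M to 82.4 M per library. In batch 1, the RIN was 7.8 to 9.2 in the control libraries, 3.9 to 7.8 in the DEX libraries and 5.6 to 7.9 in the DEX + RU-486 libraries, and total counts were 24.2 M to 82.4 M, 12.1 M to 22.3 M and 17.4 M to 26.7 M in the same order. The parts of treatment, RIN and depth cannot be told apart there. The other batch held 6 libraries, 2 for every treatment, with a RIN of 1.4 to 2.7, which stood apart from the remaining 12 of batch 2, at 7.4 to 8.7. Counts were scaled with TMM factors, which were 0.430 to 0.780 in these 6 libraries and 1.06 to 1.34 in the other 12 of batch 2. Mitochondrial rRNA took 9.54% to 19.1% of counts in the control libraries of batch 1, 20.8% to 47.4% in the DEX libraries of that batch and 43.0% to 66.9% in the 6 libraries of low RIN. Neuronal markers (Tubb3, Map2, Rbfox3, Snap25, Syt1, Slc17a7, Gad1 and Gad2) summed to between 1830 and 9060 CPM (counts per 1000000 counts) over the 36 libraries. Markers of dividing progenitors were also present, at 5.13 to 97.6 CPM.

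The histone genes were detected in every library. Together they took between 0.0613% and 0.128% of all counts, and 63 of the 70 had counts in every control library. Hist1h2aa and Hist2h3c1 were at 0 counts in every control library, and Hist1h2aj and Hist1h2ba were, with these, the 4 genes that were not tested. All of Hist2h3c1 is overlapped by Gm20634 on the same strand, so its 0 counts do not show that it was not expressed. H2A genes took the largest share of the histone counts in the control libraries, with a lowest, median and highest value of 29.9%, 34.4% and 41.9%. H1 genes took 17.3%, 23.4% and 29.5%, although there are only 6 of them. H4 genes took 13.8%, 16.6% and 21.2%, H2B genes 13.2%, 14% and 15.5%, and H3 genes 6.8%, 9.15% and 14.5%. By annotated 3′ end, the genes with transcripts that run past the stem-loop took 42.5%, 52.5% and 55.9%, those that end at it 24.4%, 28.4% and 32.5%, and those without it in the model 17.7%, 19.2% and 25%.

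Levels were compared between genes only per length, as CPM per kb of exon (TMM-scaled) in the 12 control libraries. These include replicates 19 and 20 of batch 2, of RIN 2.7 and 1.8. Most histone genes were higher in libraries of low RIN, as given below, so these 2 libraries enter the means and SDs. The median over the 70 genes was 7.85, and the values ranged from 0 to 119. Among protein-coding genes that were tested, the 64 histone genes had a median of 8.92, and all 14672 had a median of 2.81. The median level per length was 12.1 for H2A, 11.4 for H4, 6.57 for H1, 6.47 for H3 and 3.84 for H2B. The length is that of the annotated exons, so these values and the order of genes depend on how far each gene was annotated. Hist1h1d, at 7425 bases, had a mean of 27.4 CPM and 3.69 per kb. Hist1h2ai, at 393 bases, had 30.3 CPM and 77.0 per kb.

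**Figure D1:**
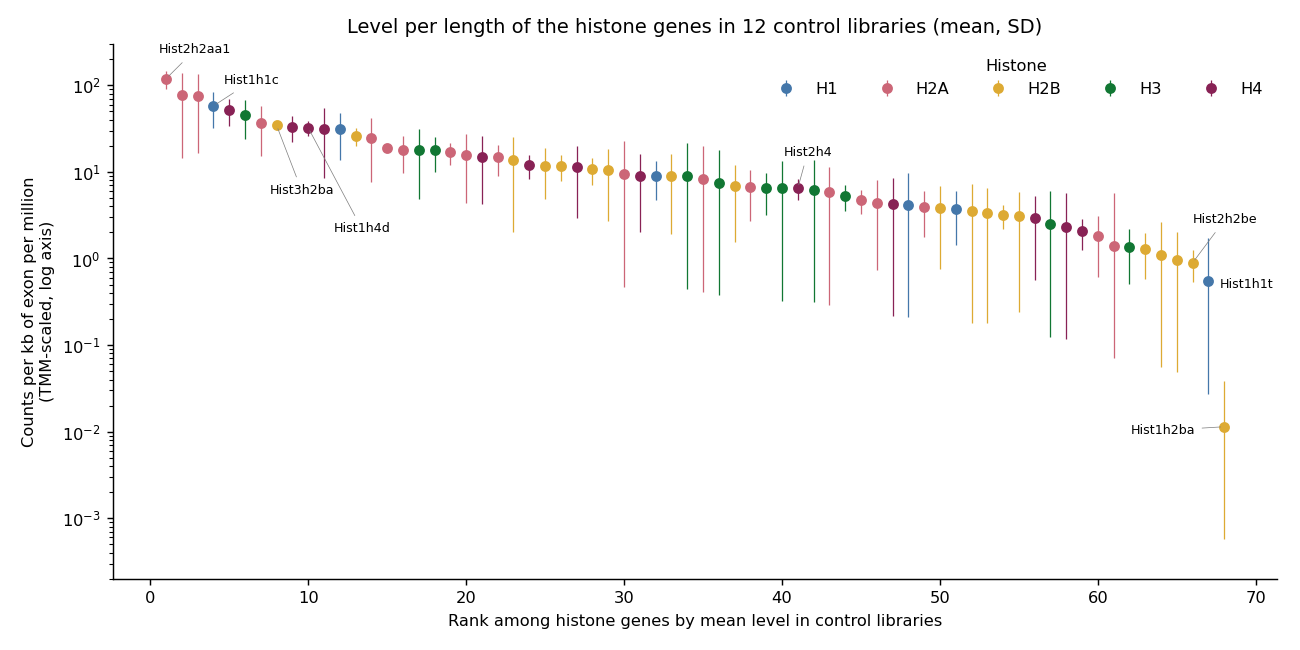
Level per length of the histone genes in the 12 control libraries, ranked by their mean, on a log axis (CPM per kb of exon, TMM-scaled), with points as means, bars as SD (cut where they would fall below 5% of the mean) and colours for the histone class. Hist2h2aa1 stands first at 119 and Hist1h2ba last at 0.0114, and the 2 genes at 0, Hist1h2aa and Hist2h3c1, are not drawn.

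Hist2h2aa1, an H2A gene of the Hist2 cluster (chr3:96245497-96246082), had the highest level per length, at 119 ± 29 (SD, n = 12). It was above the next gene, Hist1h2ai, in 11 of 12 control libraries. None of its 100-base windows was unique among annotated transcripts read on either strand (0%), as Gm20633 on the opposite strand overlaps all of it and Gm20634 on the same strand 90.3% of it, and how the counting split such reads is uncertain. The next genes were the H2A genes Hist1h2ai, at 77.0 ± 62.7, and Hist1h2ap, at 74.9 ± 58.4, of which 11.6% and 7.8% of windows were unique. Their order held in 5 of 12 libraries, so they did not differ beyond their spread.

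Hist1h1c, which encodes a somatic linker histone, followed at 57.8 ± 25.6, and Hist1h4h, an H4 gene, at 51.8 ± 18.3. Hist1h2ap was above Hist1h1c in 6 of 12 libraries and Hist1h1c above Hist1h4h in 7 of 12, and these neighbours too could not be told apart. Hist2h3b, an H3 gene with no unique window (0%) that Gm20628 overlaps on the opposite strand, had a level of 45.8 ± 21.5, and Hist1h2ak, an H2A gene, 36.4 ± 21. Hist3h2ba, an H2B gene, had a level of 34.5 ± 3.23, the smallest SD of the 10 genes. Hist1h4k and Hist1h4d, both H4 genes, followed at 33.4 ± 11.2 and 32.4 ± 6.56, and their order held in 6 of 12 libraries.

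Hist1h1c had 94.9% of its windows unique and took the most counts of the 70 genes, with a mean count of 2770 per library. Its control libraries had a lowest, median and highest value of 41.6, 86.3 and 183 CPM. Hist3h2a, an H2A gene of the Hist3 cluster (chr11:58954685-58956830), was steadier, at 35.5, 39.7 and 48.9 CPM, and its annotation overlaps that of Trim17 on the same strand. Hist1h1t, the H1 gene known from the testis, was near the bottom of the order, at 0.55 ± 1.16 per kb. In all, 29 of the 70 genes had under 50% of their windows unique.

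DEX against control asked whether glucocorticoid receptor activation changed histone mRNA. Across all 36 libraries 62 of the 66 tested histone genes had a log2 fold change above 0. Their median was 0.52, against -0.01 over all 20355 genes tested. None passed the test (0 of 66, edgeR quasi-likelihood test with batch as a covariate, Benjamini-Hochberg adjusted p under 0.05), where 0.0147% of all genes were called higher and 0.00983% lower. Without the adjustment, 29 histone genes had a p under 0.05 with a higher level, where 6.86% of all genes did, and 0 with a lower level, where 10.1% of all genes did. DESeq2 called 4 higher, Hist1h1c, Hist1h2ao, Hist1h2bp and Hist2h4, where it called 1.15% of all genes higher. The count depended on single libraries. Without control replicate 20 (batch 2, RIN 1.8), 21 histone genes were called higher, where 3.56% of all genes were, and 19 of the 21 were also called in batch 1 alone. It was 3 without control replicate 19 (0.771% of all genes), 2 without DEX replicate 26 (0.0688%), 1 without DEX + RU-486 replicate 18 (0.0344%) and 1 without replicate 31 of that group (0.0393%), so that the share of all genes called moved as well. The class medians were 0.61 for H1, 0.56 for H2A, 0.57 for H2B, 0.56 for H3 and 0.38 for H4.

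Hist2h4, the H4 gene of the Hist2 cluster (chr3:96261682-96263311, all 100-base windows unique), came closest to the threshold. In batch 1, its lowest, median and highest values were 6.73, 9.91 and 11.7 CPM in the control libraries and 15.9, 18.1 and 26.3 CPM in the DEX libraries. The groups did not overlap in batch 1, as every DEX library was above every control library. In batch 2 the 4 control libraries of RIN above 7 had 9.62, 9.62, 11.1 and 12.8 CPM, and the 4 DEX libraries 12, 12.4, 12.5 and 17.4 CPM, which overlapped. The log2 fold change over all libraries was 0.64 (SE 0.14, edgeR adjusted p = 0.0515). With RIN as a further covariate the adjusted p was 0.0225, in a fit that called 0.919% of all genes higher.

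Hist1h2ao, an H2A gene of the Hist1 cluster (chr13:21810465-21810944), was low and had the largest fold change of the 3 genes nearest the threshold, at 1.15 on the log2 scale (SE 0.27, edgeR adjusted p = 0.0769), which did not pass. It had 0.473, 1.22 and 1.86 CPM (lowest, median, highest) in the control libraries of batch 1 and 2.30, 4.03 and 6.63 CPM in the DEX libraries, with no overlap. In batch 2 the control libraries of RIN above 7 had 1.38, 1.66, 2.09 and 4.02 CPM and the DEX libraries 1.89, 2.62, 3.49 and 6.45 CPM, and these overlapped. With RIN as a covariate its adjusted p was 0.0299. Only 7.3% of its windows were unique and 92.7% were shared with Hist1h2ap, which had a mean count of 1040 per library against 75 for Hist1h2ao, so it is uncertain how much of the difference belongs to Hist1h2ao itself. Hist1h2ao and Hist2h4 were the 2 histone genes that passed in that fit.

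Hist1h1c (chr13:23738808-23740367) had a log2 fold change of 0.61 (SE 0.19, edgeR adjusted p = 0.105). Its batch 1 values were 41.6, 58.1 and 77.9 CPM in control and 109, 118 and 211 CPM in DEX, again without overlap. In batch 2 the control libraries of RIN above 7 had 94.7, 106, 116 and 118 CPM and the DEX libraries 86.1, 99.9, 118 and 141 CPM. The batch 2 control libraries were close to the batch 1 DEX libraries, and the lowest of them was above all control libraries of batch 1. For Hist2h3c2, too, the lowest batch 2 control library, at 3.9 CPM, was above the highest of batch 1, at 3.73 CPM.

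**Figure D2:**
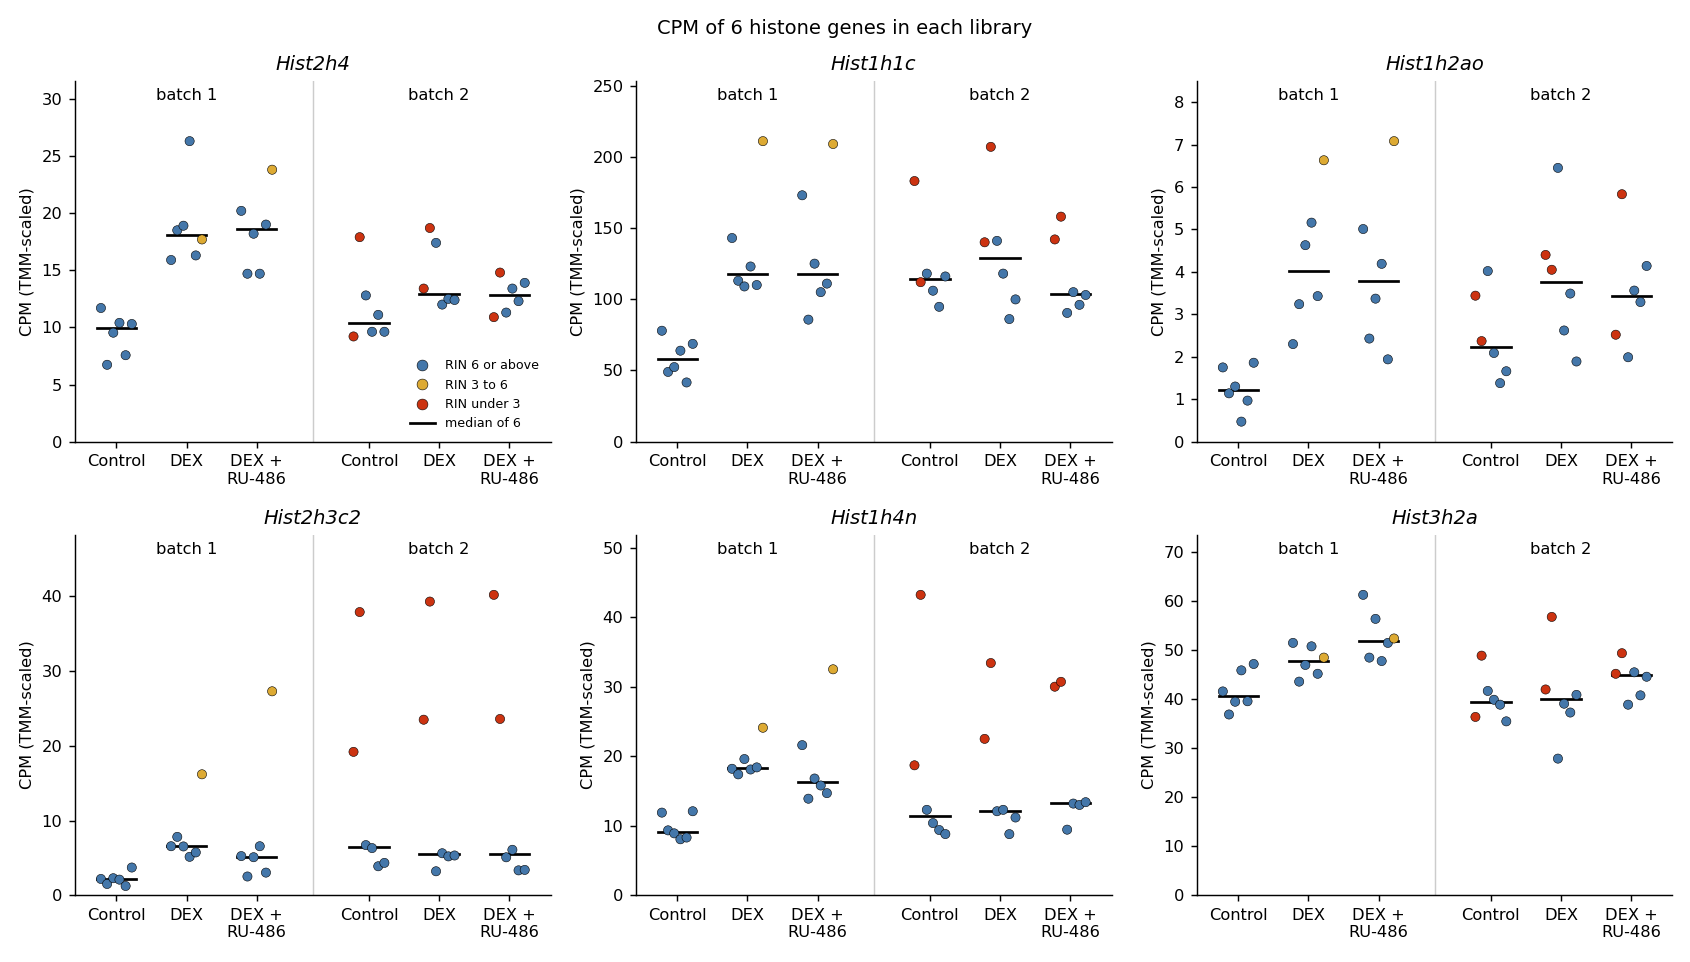
CPM (TMM-scaled) of 6 histone genes in each of the 36 libraries, by batch and treatment, with points coloured by RIN and lines at the median of 6 libraries. In batch 1 the DEX libraries of Hist2h4 (lowest 15.9) sit above the control libraries (highest 11.7), while in batch 2 the treatments overlap and the libraries of RIN under 3 stand highest for Hist2h3c2 and Hist1h4n.

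Within batch 1 the difference passed for most of the histone genes. There, 44 of 66 (66.7%) were higher with DEX and 0 were lower, where 8.99% of all genes were higher and 9.99% lower (edgeR, batch 1 alone). The median log2 fold change of the 66 was 1.01. All 6 H1 genes were called higher, as were 8 of 18 H2A, 12 of 18 H2B, 7 of 11 H3 and 11 of 13 H4 genes. Without the DEX and DEX + RU-486 libraries of RIN under 6 the count was 42, where 9.26% of all genes were higher, and 41 of the 42 were among the 44. In 25 of the 66 genes (37.9%) every DEX library of batch 1 was above every control library, which held for 3.2% of all genes. In the 28 libraries of RIN 6 or above of both batches, 31 were higher, where 7.83% of all genes were, and 26 of the 31 were among the 44.

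The H1 genes were all higher in batch 1. Hist1h1c had a log2 fold change of 1.23 (SE 0.21, edgeR adjusted p = 0.000965) and Hist1h1e, another somatic linker histone, 1.15 (SE 0.25, adjusted p = 0.00388). Hist1h1b, the H1 gene known from dividing cells, had 0.671, 0.99 and 1.74 CPM in control and 2.03, 3.8 and 8.77 CPM in DEX, with a log2 fold change of 2.04 (SE 0.39, edgeR adjusted p = 0.00168). Hist1h1t had the largest change, at 2.87 (SE 0.66, adjusted p = 0.00518), from a very low level.

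Among the core histones, Hist1h2bq had a log2 fold change of 1.66 (SE 0.25, edgeR adjusted p = 0.00051, batch 1 alone), Hist2h4 1.05 (SE 0.16, adjusted p = 0.000571) and Hist1h4n 1.02 (SE 0.18, adjusted p = 0.00123). Of their windows 5.2%, 100% and 19.3% were unique, and the values of Hist1h2bq and Hist1h4n are uncertain for that reason. Hist1h4n had 8.07, 9.13 and 12.1 CPM in control and 17.4, 18.3 and 24.1 CPM in DEX, and the groups did not overlap. Some of the abundant genes did not pass. Hist2h2aa1 had a log2 fold change of 0.23 (SE 0.23, edgeR adjusted p = 0.529), Hist3h2a 0.23 (SE 0.10, adjusted p = 0.0999) and Hist3h2ba 0.39 (SE 0.17, adjusted p = 0.0993).

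The DEX libraries of batch 1 held more mitochondrial rRNA, as given above, and the counts there depended on the scaling. With library totals in place of TMM factors, the median over all genes in batch 1 moved to -0.26 and that of the histone genes to 0.66. Of the 66, 26 were then higher, all among the 44 above, and 0 were lower, where 3.64% of all genes were higher and 17.8% lower.

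In batch 2 the difference did not pass. In the 8 libraries of RIN above 7 (4 against 4), 0 of 66 histone genes passed in either direction, where 0.329% of all genes were higher and 0.236% lower. Before adjustment, 10 were higher at a p under 0.05 and 3 lower, against 8.58% and 8.61% of all genes. The median was 0.13, and the smallest adjusted p was 0.103, for Hist1h2ap, with a log2 fold change of 0.54 (SE 0.15). Hist1h1c had a log2 fold change of 0.05 (SE 0.12, edgeR adjusted p = 0.869). Only Hist1h2ak, Hist1h2al and Hist1h2bm had all DEX libraries above all control libraries (3 of 66, 4.55%), which held for 4.47% of all genes.

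The difference between the batches was itself tested, as the DEX effect in batch 2 minus that in batch 1 in the 28 libraries of RIN 6 or above. It passed for 8 of 66 histone genes (12.1%), all with a smaller or opposite effect in batch 2, where 1.07% of all genes were lower and 3.18% higher (edgeR). The genes were Hist1h3e, Hist2h3c2, Hist1h1c, Hist1h3i, Hist1h4c, Hist1h4n, Hist1h4d and Hist1h4f, and the median over the 66 was -0.69. With all 36 libraries in that fit 0 passed, where 0.0393% of all genes were lower and 0.133% higher. The differences were of similar size there, at -1.08 (SE 0.31) against -0.97 (SE 0.23) for Hist1h1c and at -1.20 (SE 0.32) against -1.23 (SE 0.25) for Hist1h3e.

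**Figure D3:**
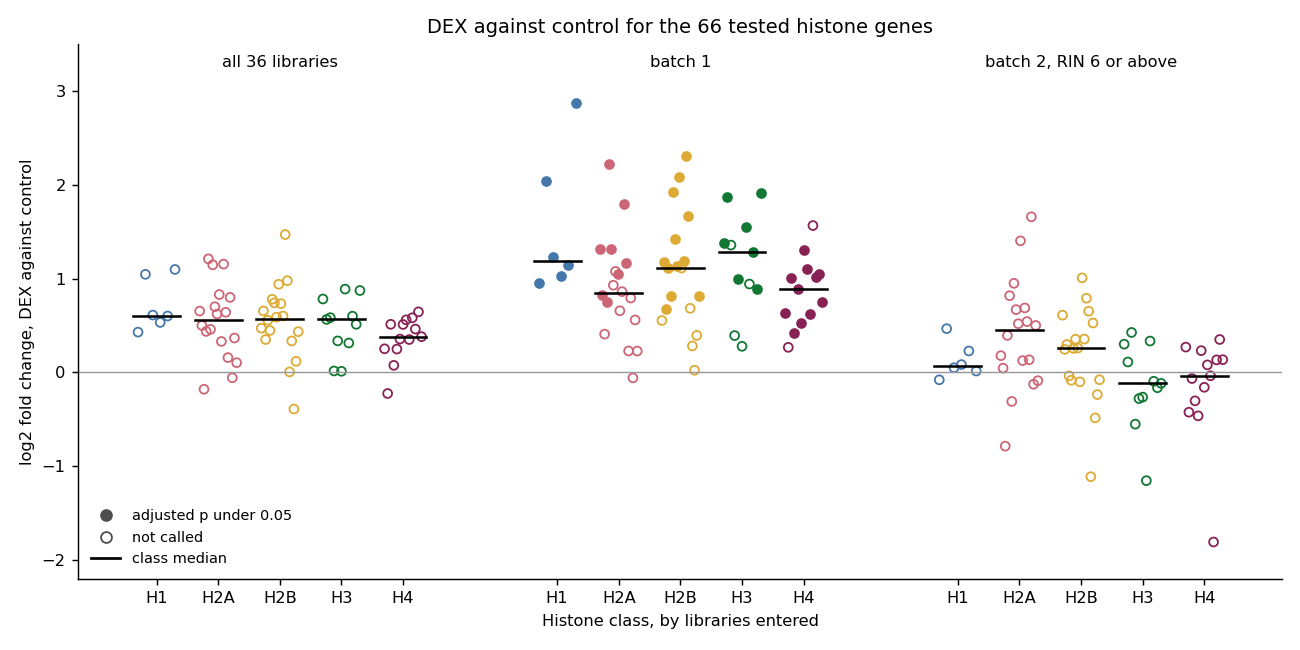
Log2 fold change of DEX against control for the 66 tested histone genes by class, in all 36 libraries, in batch 1 and in the batch 2 libraries of RIN 6 or above, with filled points for an adjusted p under 0.05 and lines at class medians. In batch 1, 44 points are filled, and in the other fits none is.

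DEX + RU-486 against control shares its control libraries with the comparison above and is given beside it. Across all libraries 0 of 66 histone genes passed (edgeR), where 0% of all genes were called in either direction. Without the adjustment 26 were higher at a p under 0.05, where 4.19% of all genes were, and 0 were lower, where 6.63% of all genes were. DESeq2 called 3, Hist1h2ao, Hist1h2bg and Hist2h4, where it called 0.231% of all genes higher. With RIN as a covariate Hist1h2ao and Hist2h4 passed, where 0.295% of all genes were higher. Without control replicate 20, 12 were called higher, where 0.693% of all genes were. The median log2 fold change was 0.51 and 61 of 66 were positive. The smallest adjusted p was 0.137.

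Hist2h4 had 14.7, 18.6 and 23.8 CPM in the DEX + RU-486 libraries of batch 1, none of which overlapped the control libraries there, and its log2 fold change over all libraries was 0.54. Hist1h2ao had 1.94, 3.78 and 7.08 CPM and a log2 fold change of 1.06. In the batch 2 libraries of RIN above 7 both genes overlapped control. Hist2h4 had 11.3 to 13.9 CPM there with DEX + RU-486 and 9.62 to 12.8 CPM in control, and Hist1h2ao 1.99 to 4.14 and 1.38 to 4.02 CPM. Hist1h2bg, an H2B gene, had 4.82, 5.64 and 6.63 CPM in the control libraries of batch 1 and 7.18, 10.2 and 15.6 CPM in the DEX + RU-486 libraries, which did not overlap. Its log2 fold change over all libraries was 0.56 (edgeR adjusted p = 0.149). In batch 2 its control libraries of RIN above 7 had 6.93, 7.23, 8.75 and 12.6 CPM and its DEX + RU-486 libraries 6.86, 7.55, 9.50 and 10.7 CPM, which overlapped.

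In batch 1 alone 45 of 66 histone genes were higher with DEX + RU-486 and 0 were lower, where 6.92% of all genes were higher and 8.47% lower. Without the libraries of RIN under 6 the count was 36, where 6.36% of all genes were higher. With library totals 26 were higher and 1, Hist2h2ab, was lower, where 2.23% of all genes were higher and 25.9% lower. In the 28 libraries of RIN 6 or above of both batches, 18 were higher and 1, again Hist2h2ab, was lower, where 2.99% of all genes were higher and 5.87% lower. Hist1h1c had a log2 fold change of 1.22 (SE 0.21, edgeR adjusted p = 0.00175) and Hist2h4 of 1.00 (SE 0.16, adjusted p = 0.00122). In 9 of the 66 genes (13.6%) all treated libraries of batch 1 were above all control libraries, which held for 1.99% of all genes. The DEX + RU-486 libraries of batch 1 held 24.8% to 45.0% mitochondrial rRNA. Of the 8 markers of dividing progenitors 6 were higher there, at a sum of 14.3 to 97.1 CPM (14.3 to 49.9 CPM without replicate 18, of RIN 5.6), as were 3 of 6 oligodendrocyte lineage markers, at 208 to 892 CPM (208 to 613 CPM without it), 2 of 6 astrocyte markers and 1 of 6 endothelial and mesenchymal markers, while 4 of 8 neuronal markers were lower. The part of these in the result was not tested. In the batch 2 libraries of RIN above 7, 0 passed, where 0% of all genes were higher and 0.00491% lower. No histone gene (0 of 66) had all treated libraries above all control libraries there, which held for 2.8% of all genes.

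DEX + RU-486 against DEX asked whether the antagonist altered the response. No histone gene passed in any of the fits made (0 of 66 over all libraries, where 0% of all genes passed, and 0 of 66 in the batch 2 libraries of RIN 6 or above, where 0.747% of all genes were higher and 0.811% lower). Over all libraries none (0 of 66) had an unadjusted p under 0.05, where 1.44% of all genes were higher and 1.23% lower at that level. DESeq2 also called 0, where it called 0% of all genes higher and 0.00983% lower. The median log2 fold change was 0.01. The genes with the smallest p were Hist2h2be, an H2B gene, at 0.36 (SE 0.20), Hist3h2a at 0.13 (SE 0.08) and Hist2h2bb, an H2B gene, at -0.20 (SE 0.14). Hist2h2be had 0.95 to 2.78 CPM in the DEX libraries of batch 1 and 1.32 to 2.77 CPM in the DEX + RU-486 libraries, which overlapped. For Hist1h1c the difference was -0.08 (SE 0.19), and for Hist2h4 -0.10 (SE 0.14). A p that misses the threshold does not show that the treatments acted alike.

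As a share of all counts, the histone genes overlapped between all treatments in batch 2. In batch 1 the lowest, median and highest shares were 0.0639%, 0.073% and 0.0835% in control, 0.0838%, 0.102% and 0.126% in DEX, and 0.0801%, 0.0962% and 0.127% in DEX + RU-486. The DEX libraries began just above the highest control library, and the DEX + RU-486 libraries overlapped it. In batch 2 the values over all libraries were 0.086%, 0.0893% and 0.128% in control, 0.0724%, 0.0853% and 0.0951% in DEX, and 0.0613%, 0.0867% and 0.118% in DEX + RU-486. With the counts of the mitochondrial genome left out, batch 1 control libraries were at 0.0733% to 0.101%, DEX libraries at 0.127% to 0.215% and DEX + RU-486 libraries at 0.11% to 0.239%. On that scale the batch 2 libraries of RIN above 7 were at 0.11% to 0.152% and those of RIN under 3 at 0.186% to 0.238%, with no overlap.

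**Figure D4:**
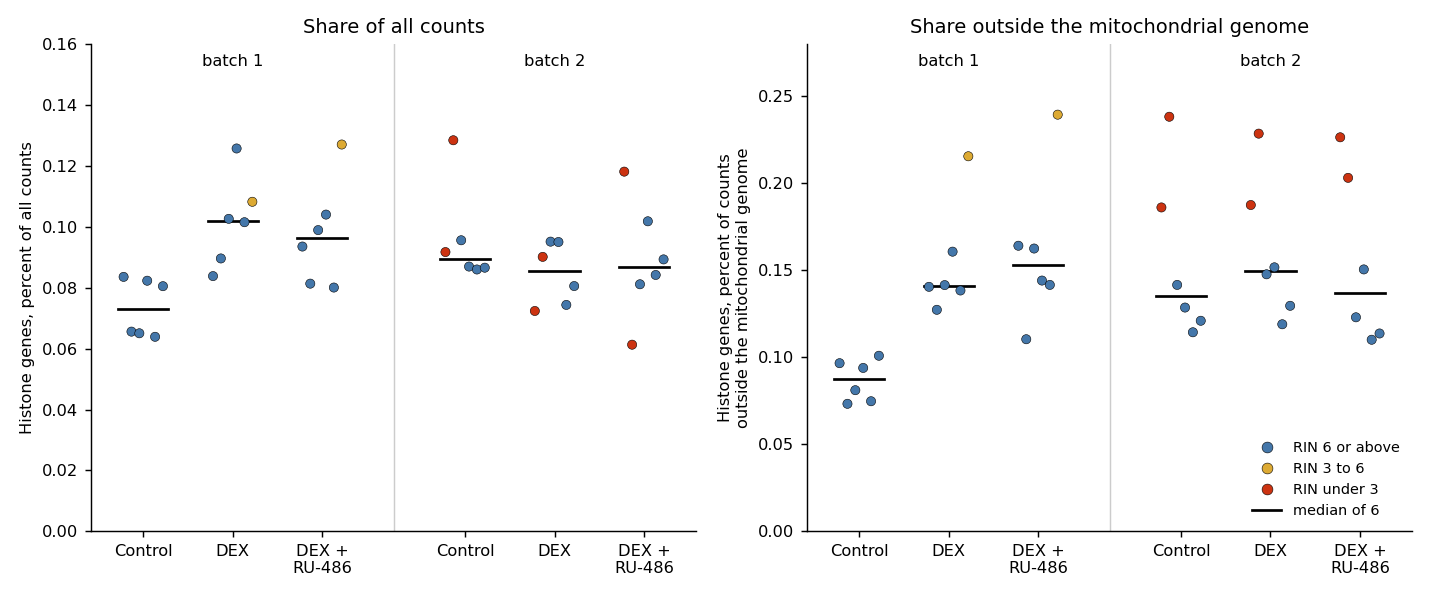
Summed histone gene counts in each of the 36 libraries, as a percent of all counts and of the counts outside the mitochondrial genome, by batch and treatment, with points coloured by RIN and lines at the median of 6 libraries. Outside the mitochondrial genome the batch 1 control libraries are lowest (0.0733% to 0.101%), and the 8 libraries of RIN under 6 are highest.

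Other genes moved with the histone genes in batch 1, and their part in the result was not tested. In the batch 1 fit, 8.99% of all genes were higher with DEX and 9.99% lower, to be set beside each batch 1 count below. Of the 8 markers of dividing progenitors (Mki67, Top2a, Cdk1, Ccnb1, Sox2, Pax6, Eomes and Hes5), 6 were higher with DEX in batch 1, and their summed level was 5.13 to 22.5 CPM in control and 19.6 to 97.6 CPM in DEX, or 19.6 to 36.7 CPM without DEX replicate 12 (RIN 3.9). Of 28 genes of S phase and division, which share Mki67, Top2a, Cdk1 and Ccnb1 with that list, 8 were higher and 2 lower. Among the 8 that were higher, Mcm7, a subunit of the replicative helicase, had a log2 fold change of 0.84 (edgeR adjusted p = 0.00215). Mcm5, another subunit, had 0.99 (adjusted p = 0.0345). Cdk1, the kinase that drives entry into mitosis and also among the 8, had 1.99 (adjusted p = 0.0138). Of 6 oligodendrocyte lineage markers 4 were higher, with a summed level of 57.5 to 269 CPM in control and 455 to 2070 CPM in DEX (455 to 735 CPM without replicate 12), as were 3 of 6 astrocyte markers, while 5 of 8 neuronal markers were lower. Astrocyte markers summed to 11.8 to 19.7 CPM in control and 17 to 32.1 CPM in DEX, and neuronal markers to 2460 to 3220 CPM and 1830 to 2790 CPM. Of the 6 endothelial and mesenchymal markers and the 3 tested of 6 microglial markers none passed, at sums of 1.48 to 5.39 CPM and 0.0989 to 0.618 CPM in control, and 1.32 to 7.33 CPM and 0.0631 to 1.36 CPM in DEX. In the batch 2 libraries of RIN 6 or above, where no histone gene passed, some sums also differed. Oligodendrocyte lineage markers had 382 to 494 CPM in control and 603 to 998 CPM in DEX, and astrocyte markers 16.2 to 21.9 and 23.3 to 36.8 CPM. Neither overlapped. Sums of dividing progenitor markers (29.4 to 39.4 and 31.3 to 51.5 CPM) and neuronal markers (2020 to 2320 and 2060 to 2260 CPM) overlapped.

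Other RNAs that lack a poly(A) tail, among them small nucleolar and Cajal body RNAs, were in part higher in batch 1. Of 15 tested, 9 were higher with DEX and 0 lower, where 8.99% of all genes were higher and 9.99% lower. Their median log2 fold change was 1.15. With DEX + RU-486, 9 were higher, where 6.92% of all genes were. Scarna2 and Scarna13, guide RNAs of the Cajal body, had 1.19 (edgeR adjusted p = 0.000495) and 1.15 (adjusted p = 0.000571). Over all libraries none of the 15 passed for DEX, and Scarna13 had 0.63 (adjusted p = 0.101), Scarna2 0.51 and Snora73a, a small nucleolar RNA, 1.32. In the batch 2 libraries of RIN above 7 none of the 15 passed for DEX and their median was -0.04.

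None of the genes that process histone mRNA was called higher with DEX over all libraries or in batch 1. Of 22 listed, 19 were tested, and over all libraries none passed in either direction. Cpsf2, a subunit of the nuclease complex that cuts the 3′ end, had a log2 fold change of -0.34 (edgeR adjusted p = 0.113), Ncbp1, a cap-binding protein, -0.27, and Eri1, an exonuclease of the stem-loop, 0.30. In batch 1 alone Cpsf2 fell by 0.58 on the log2 scale (adjusted p = 0.00123) and Ncbp1 by 0.35 (adjusted p = 0.0134), and none of the 19 rose. Slbp had 0.10 (SE 0.09, adjusted p = 0.627) over all libraries.

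Replacement histones are made also outside S phase, from polyadenylated mRNAs. Over all libraries none of 13 passed for DEX, and H3f3b, which encodes H3.3, had 0.28 (edgeR adjusted p = 0.172), H1fx 0.53 and H1f0 0.34. In batch 1, 5 of the 13 were higher, among them H1f0, a linker histone of cells that no longer divide, at 0.74 (adjusted p = 0.00992). H3f3b was at 0.52 (adjusted p = 0.0138) and H1fx, another linker histone, at 0.74 (adjusted p = 0.0201). Of 18 histone chaperones 0 were higher and 2 lower in batch 1. In that fit 8.99% of all genes were higher and 9.99% lower. Hira, a chaperone of H3.3, had -0.19 over all libraries and fell by 0.31 in batch 1 (adjusted p = 0.021), while Ubn1, its partner, had 0.11 and Nap1l4, an H2A and H2B chaperone, -0.14 over all libraries.

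RNA integrity was compared in batch 2, where the 6 libraries of RIN under 3 were spread evenly over the treatments. There, 57 of 66 histone genes (86.4%) were higher in the libraries of low RIN and 0 were lower, where 28.4% of all genes were higher and 26.8% lower (edgeR, group as a covariate). All 66 log2 fold changes were positive, with a median of 1.23 against 0.04 over all genes. All 6 H1 and all 11 H3 genes were called, as were 15 of 18 H2A, 13 of 18 H2B and 12 of 13 H4 genes. In 29 of the 66 (43.9%) every library of low RIN was above every other library of batch 2, which held for 8.03% of all genes.

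Hist2h3c2, an H3 gene of the Hist2 cluster (chr3:96238108-96239127), had the smallest p and the largest fold change. It had a lowest, median and highest value of 3.23, 5.16 and 6.73 CPM in the 12 libraries of RIN above 7 and 19.2, 30.7 and 40.2 CPM in the 6 of RIN under 3. The groups did not overlap, with a log2 fold change of 2.63 (SE 0.18, edgeR adjusted p = 2.01e-10). Hist1h3b, another H3 gene, had 1.99, 3.70 and 5.52 CPM against 8.49, 14.3 and 28.8 CPM, a log2 fold change of 2.13 (SE 0.21, edgeR adjusted p = 3.58e-08). Hist1h3i, an H3 gene as well, had 4.25, 6.57 and 8.43 CPM against 15.8, 17.6 and 22.7 CPM, or 1.47 (SE 0.15, adjusted p = 3.65e-08).

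The other 3 of the 6 genes with the smallest p encode H2B, H4 and H2A. Hist1h2bc, an H2B gene, had 10.8, 14.8 and 17.6 CPM against 35.6, 47.0 and 64.5 CPM, a log2 fold change of 1.69 (SE 0.12, edgeR adjusted p = 2.83e-10). Hist1h4a, an H4 gene, had 3.61, 4.16 and 6.49 CPM against 9.50, 14.3 and 18.2 CPM, or 1.62 (SE 0.16, adjusted p = 2.60e-08). Hist1h2ap, an H2A gene, had 27.8, 32.4 and 55.8 CPM against 67.9, 87.5 and 121 CPM, or 1.31 (SE 0.13, adjusted p = 4.18e-08). In none of the 6 genes did the groups overlap.

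The TMM factors of these 6 libraries were low, as given above, and scaling moved this comparison. With library totals, the median over all genes moved to -0.88 and that of the histone genes to 0.34, so that the histone genes stayed 1.22 above the median gene where they had been 1.19 above it. Of the 66, 21 were then higher and 11 lower, where 8.1% of all genes were higher and 57.7% lower. All 21 were among the 57. Hist1h1c, Hist1h2be, Hist1h2bg and Hist1h4d were called higher with TMM and lower with library totals, and Hist2h3c2 stayed higher at 1.74 (adjusted p = 2.87e-08).

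The size of the difference with RIN varied with the annotated 3′ end. Genes that ended at the stem-loop had a median log2 fold change of 1.37 with TMM (21 of 23 called), those without a stem-loop in the model 1.46 (18 of 21), and those with transcripts that ran past it 0.84 (18 of 22). With library totals the medians were 0.48, 0.52 and -0.07. These medians are descriptions of lists of unequal length and level, and the difference between them was not tested.

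**Figure D5:**
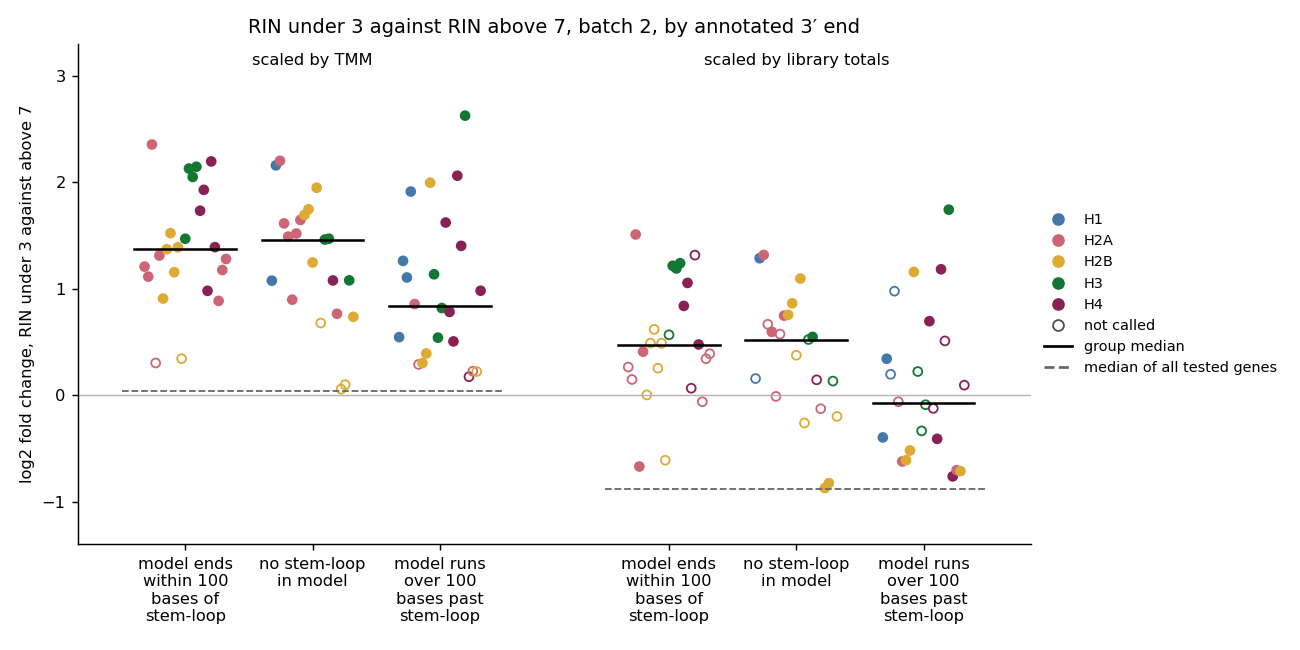
Log2 fold change of RIN under 3 against RIN above 7 in batch 2 for the 66 tested histone genes, by annotated 3′ end and by scaling, with filled points for an adjusted p under 0.05, colours for the histone class, solid lines at group medians and dashed lines at the median of all tested genes (0.04 with TMM and -0.88 with library totals). The genes whose transcripts run past the stem-loop have the lowest median under both scalings (0.84 and -0.07).

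Of the 3 genes nearest the threshold for DEX, Hist1h1c passed with RIN (0.55, SE 0.11, edgeR adjusted p = 0.000333) and the other two did not. Hist2h4 had a log2 fold change of 0.17 (SE 0.14, edgeR adjusted p = 0.298) between libraries of low and high RIN, and Hist1h2ao of 0.30 (SE 0.28, adjusted p = 0.369). Hist3h2a had 0.23 (SE 0.10, adjusted p = 0.0595), Hist3h2ba 0.22 (SE 0.13, adjusted p = 0.141), Hist2h2be 0.10 (SE 0.25, adjusted p = 0.751) and Hist2h2bb 0.06 (SE 0.14, adjusted p = 0.738). None of these passed with TMM, and all of them were called lower with library totals, where 57.7% of all genes were.

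Genes of the companion lists differed with RIN too. Of the 28 genes of S phase and division, 18 were higher and 0 lower in the libraries of low RIN, with a median of 0.96. With library totals 5 of the 28 were higher and 9 lower, where 8.1% of all genes were higher and 57.7% lower. Of 15 other RNAs without a poly(A) tail 9 were higher and 3 lower. Replacement histones were higher in 8 of 13 and lower in 0. Of the 19 genes that process histone mRNA 7 were higher and 5 lower, and of the 18 chaperones 5 were higher and 5 lower, where 28.4% of all genes were higher and 26.8% lower. Of the 8 neuronal markers 4 were higher and 4 lower, and their summed level was 4990 to 9060 CPM in the libraries of low RIN and 2020 to 2320 CPM in the other libraries of batch 2. Of the 8 markers of dividing progenitors 5 were higher and 0 lower, at sums of 65.8 to 95.9 CPM against 13.3 to 51.5 CPM. Neither of these sums overlapped between the groups. Higher also were 6 of 6 oligodendrocyte lineage markers, 5 of 6 astrocyte markers, 4 of 6 endothelial and mesenchymal markers and 2 of 3 tested microglial markers, with 0 lower in each, and their sums overlapped. The part of these in the difference was not tested.

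Batch 2 against batch 1, in the 28 libraries of RIN 6 or above, asked how far the histone genes differed without the degraded libraries. Of 66, 3 (4.55%) were higher in batch 2 and 17 (25.8%) lower, where 23.4% of all genes were higher and 24.7% lower (edgeR, group as a covariate), and the median was -0.03. The 3 became 6 without DEX + RU-486 replicate 15 (24.6% of all genes higher), and 5 without control replicate 4 (24.9%) or without DEX + RU-486 replicate 35 (22.6%) or 36 (23.1%). The H4 genes made up 9 of the 17 that were lower. All 13 had a negative log2 fold change, with a median of -0.41. These values are averages over the treatments, and the DEX effect on 4 of the 13, Hist1h4c, Hist1h4d, Hist1h4f and Hist1h4n, was itself smaller or opposite in batch 2, as given above. With library totals all 13 were again negative, with 5 called and a median of -0.29, in a fit that called 13.8% of all genes lower and 26.4% higher.

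Among the H4 genes, Hist1h4f had a lowest, median and highest value of 1.95, 3.42 and 6.66 CPM in batch 1 and 0.786, 2.31 and 2.95 CPM in batch 2, with a log2 fold change of -0.80 (SE 0.18, edgeR adjusted p = 0.000593). Hist1h4k had 7.20, 10.3 and 18.1 CPM against 6.94, 8.24 and 10.3 CPM, or -0.42 (SE 0.11, adjusted p = 0.00246). Hist1h4n had -0.36 (SE 0.10, adjusted p = 0.00456) and Hist4h4, the lone gene of its locus, -0.51 (SE 0.15, adjusted p = 0.00494). The batches overlapped in all 4 genes. In the control libraries of RIN 6 or above alone, Hist1h4f had 1.95 to 3.24 CPM in batch 1 and 2.04 to 2.65 CPM in batch 2, and Hist1h4n 8.07 to 12.1 CPM and 8.82 to 12.3 CPM. In the DEX libraries of RIN 6 or above Hist1h4f had 3.6 to 6.66 CPM and 0.786 to 2.95 CPM, and Hist1h4n 17.4 to 19.6 CPM and 8.81 to 12.3 CPM. For both genes these control libraries overlapped between the batches and these DEX libraries did not.

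Of the H2A genes, Hist3h2a had 36.9, 47.1 and 61.3 CPM in batch 1 and 27.9, 39.5 and 45.5 CPM in batch 2, with a log2 fold change of -0.28 (SE 0.06, edgeR adjusted p = 0.000631). Hist2h2ab had 5.22, 7.57 and 12.6 CPM against 2.02, 5.05 and 7.70 CPM, or -0.63 (SE 0.15, adjusted p = 0.00104). Both overlapped between batches. Of the other RNAs without a poly(A) tail, 14 of 15 were lower in batch 2 and 0 higher, with a median of -2.35. Of the 28 S phase genes 8 were higher and 4 lower in batch 2, where 23.4% of all genes were higher and 24.7% lower.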

How the data were processed

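Bulk RNA-seq was measured in 36 libraries of mouse cortical cultures, grouped by the sample labels into control, DEX and DEX + RU-486, of 12 libraries each in 2 batches. The authors deposited raw read counts per gene, aligned with HISAT2 2.1.0 and counted with Subread 1.5.0-p2 on GRCm38 according to the submitters' processing notes, and the annotation release and strand setting are not given in the sources used here. The study also describes an alignment that discarded reads with more than 1 locus, and states that these libraries went through its described pipeline. Which alignment the deposited counts came from is not stated, so genes that share sequence are uncertain. Of the 55492 entries, 55227 matched GENCODE M21 and 5 name reporter or recombinase genes, which stayed in the table.

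The counts were fitted in R 4.3.3 with the quasi-likelihood test of edgeR 4.0.16, with TMM factors, batch and group as terms, and the 20355 entries with a mean count above 5. P-values were adjusted over all of these by Benjamini-Hochberg and called under 0.05, and the SE is the log2 fold change divided by the root of F. DESeq2 1.42.0, which the study names, was the alternative test. CPM values are TMM-scaled. Summaries used Python 3.11.15, numpy 2.4.6 and pandas 2.3.3, and plots matplotlib 3.10.9. Total counts were 12.1 M to 82.4 M per library. On counts simulated for DEX against control over 20355 genes, 92 of 100 genes with a 4-fold change and 64 of 100 with a 2-fold change were recovered, and 6 of 20155 unchanged genes were called.

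The histone genes and the lists set beside them were chosen with earlier results of these data known. The lists were histone mRNA processing, polyadenylated replacement histones, histone chaperones, S phase and division, other RNAs without poly(A) tails, and markers of neurons, astrocytes, oligodendrocyte lineage, microglia, dividing progenitors, and endothelial and mesenchymal cells. Genes were named by rule as the 10 with the highest control level per length, any called in a treatment comparison over all libraries, the 3 with the smallest p in each of these, the 6 with the smallest p in the RIN and in the batch comparison, and 3 for each list set beside them. Other genes, among them Hist1h1b, Hist1h1d, Hist1h1e, Hist1h1t, Hist1h2bq, Slbp, Mcm5 and Mcm7 and the genes named by their 3′ end or by a count, were chosen after their values were seen. Alternatives were other tests, covariates, scalings, filters and subsets of libraries, and each library was left out in turn.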

Additional observations from a re-analysis of the deposited data

Results flagged for a closer look

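Single libraries that stood far above the other 5 of their group and batch were marked by the ratio of their gap to the whole range (Dixon's 95% critical value), over 156 groups of 6, which covered 25 histone genes and the summed share. Chance marks about 1 in 20 groups. Every marked library was the highest of its 6.

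In the control libraries of batch 2, replicate 20 (RIN 1.8) was marked for the summed histone share, at 0.128% of counts, and in CPM for Hist2h3b at 52.1, Hist1h4k at 20.8, Hist1h3b at 28.8, Hist1h4f at 11.9 and Hist1h4n at 43.2. Replicate 19 (RIN 2.7) was marked there for Hist1h1c at 183 CPM and Hist2h2be at 4.99 CPM. In the control libraries of batch 1, replicate 6 was marked for Hist1h3b at 3.17 CPM.

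In the DEX libraries of batch 1, replicate 12 (RIN 3.9) was marked for Hist2h2aa1 at 147 CPM, Hist1h2ai at 91.0, Hist1h1c at 211, Hist2h3b at 54.2, Hist1h2ak at 33.8, Hist2h3c2 at 16.2, Hist1h3b at 12.8 and Hist1h4n at 24.1. Replicate 10 (RIN 7.3) was marked for Hist2h4 at 26.3 CPM and Hist1h4a at 8.82 CPM. In the DEX libraries of batch 2, replicate 26 (RIN 1.4) was marked for Hist1h2ai at 148 CPM, Hist2h3b at 86.9, Hist1h2ak at 39.5 and Hist4h4 at 13.1.

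In the DEX + RU-486 libraries of batch 1, replicate 18 (RIN 5.6) was marked for Hist1h2ai at 110.0 CPM, Hist2h3b at 51.9, Hist3h2ba at 39.2, Hist2h3c2 at 27.3, Hist1h3b at 12.4 and Hist1h4f at 9.77. In those of batch 2, replicate 31 (RIN 1.5) was marked for Hist4h4 at 13.3 CPM. The part of RIN in these values was not tested.

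The DEX effect differed between the batches by its own test (edgeR interaction term, 28 libraries of RIN 6 or above) for 8 genes, each with a smaller or opposite effect in batch 2. On the log2 scale the difference was -1.23 for Hist1h3e (adjusted p = 0.00583), -1.66 for Hist2h3c2 (0.014), -0.97 for Hist1h1c (0.0157), -1.29 for Hist1h3i (0.0205), -1.10 for Hist1h4c (0.0276), -0.77 for Hist1h4n (0.0285), -0.67 for Hist1h4d (0.0368) and -1.31 for Hist1h4f (0.0445).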

How the results depend on the processing

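For DEX against control the count of histone genes called higher was 0. It was 4 with DESeq2, 2 with RIN as a covariate and 31 in the libraries of RIN 6 or above. It was 44 in batch 1 alone and 42 in the batch 1 libraries of RIN 6 or above. With library totals in batch 1 alone it was 26. It ranged from 0 to 21 with 1 of the 36 libraries left out. For DEX + RU-486 against control it was 0, and the same settings gave 3, 2, 18, 45, 36, 26 and 0 to 12. The count of genes called lower there was 1 in the libraries of RIN 6 or above and 1 in batch 1 with library totals, against 0. DEX + RU-486 against DEX gave 0 under every setting run. For RIN, the 57 higher and 0 lower became 21 and 11 with library totals, and 53 to 58 were higher with 1 library left out. For batch, the 3 higher (23.4% of all genes) became 6 with DESeq2 (26.9%), 6 with upper-quartile factors (28.7%), 8 with library totals (26.4%) and 3 to 6 with 1 library left out. The 17 lower (24.7% of all genes) became 10 with upper-quartile factors (18.8%), 7 with library totals (13.8%) and 13 to 19 with 1 left out. The 8 genes lower in the interaction (1.07% of all genes) became 0 with all 36 libraries (0.0393%), with differences of similar size for Hist1h1c and Hist1h3e, and 16 with DESeq2 (2.28%). Outside the mitochondrial genome the median summed share over both batches was 0.108% in control, 0.145% in DEX and 0.147% in DEX + RU-486. The medians in the same order were 0.0875%, 0.141% and 0.153% in batch 1 and 0.135%, 0.15% and 0.137% in batch 2. In the batch 2 libraries of RIN 6 or above they were 0.125%, 0.139% and 0.118%. Hist1h2bg turned to -0.02 for DEX + RU-486 against control in the batch 2 libraries of RIN 6 or above. For DEX + RU-486 against DEX, Hist2h2bb turned to 0.12 in batch 1 and to 0.19 in the batch 1 libraries of RIN 6 or above. It turned to 0.02 with library totals in batch 1. The cause was not tested. The fits of library totals and of the RIN 6 libraries within a batch, and the share outside the mitochondrial genome, were added after the data were seen. No paired analysis was possible because the replicate numbers are not shared between groups. Low counts limit the genes that were not tested and those near 1 CPM.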
